A study of Homo sapiens with 12 samples.

Results

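Glycolysis and the entry of pyruvate into mitochondria were followed through 35 genes, from the glucose transporters to the kinases and the phosphatase that set the activity of pyruvate dehydrogenase. Members were listed by pathway step and matched by symbol to probe sets that carry a single gene symbol; where a gene had several, the brightest by its mean over the 12 arrays stood for it. Of the 35 genes, 32 were measured, out of 18404 genes in the whole series. PGAM1, a phosphoglycerate mutase, was matched only by 4 probe sets with several symbols and was left out, and SLC16A1 and SLC16A3, the lactate transporters, were not analysed here.

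The 4 groups were A375 cells given vemurafenib, A375 cells given DMSO, A2058 cells given vemurafenib and A2058 cells given DMSO, with 3 arrays each. A375, named A375p in part of the labels, and A2058 are established human melanoma cell lines, and the labels give BRAF V600E for all 12 samples, controls included. Vemurafenib, which blocks the mutant BRAF kinase, was given at 1 µM for 72 h with renewal every 24 h, while controls received an equal volume of DMSO, its solvent; this text names A375p only, so the dose and time of A2058 rest on its being attached to those samples too. Each line is a single cell line, and nothing in the labels says that the replicates were separate cultures, so the p-values measure the spread between these samples, which may be technical.

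Glycolysis breaks glucose down to pyruvate in the cytoplasm. Hexokinase traps glucose in the cell, phosphofructokinase is the committed step, and lactate dehydrogenase turns pyruvate into lactate. Pyruvate otherwise enters mitochondria through a carrier and is oxidised by pyruvate dehydrogenase, which the PDK kinases switch off and the PDP phosphatases switch on again. Many glycolytic genes are known targets of the hypoxia factor HIF1A and of MYC, and mutant BRAF melanoma is known for high glucose use.

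Values are the deposited log2 signals of Affymetrix Human Gene 1.0 ST arrays. They compare a gene between samples and not with another gene, since each probe set has its own brightness. A change is the difference of group means on the log2 scale, vemurafenib minus DMSO, with its SE from limma, a linear model fitted to all 18404 genes. Each gene has a single estimate of spread from all 12 arrays, so its SE is the same in both lines. The median SD of a gene was 0.0866 in A375 vemurafenib and 0.0461 in A375 DMSO arrays. It was 0.0507 in A2058 vemurafenib and 0.0591 in A2058 DMSO arrays. The shared SE may thus be too small for A375 changes and too large for A2058 changes. A call needs a Benjamini-Hochberg adjusted p under 0.05 over that whole table. Of the 32 members, 31 had a mean signal above the median of all genes (6.06), and 14 lay above the upper decile (9.11). PFKFB1, the liver and muscle form of the enzyme that controls phosphofructokinase, was the dim exception, with 4.31 to 4.51 over the 12 arrays.

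Arrays of a group correlated at 0.9978 to 0.9989, except A375 vemurafenib replicate 1, whose correlations with replicates 2 and 3 were 0.9941 and 0.9939. The members' counts in A375 were the same without it, and the largest move of a member's A375 change was 0.16. Among 11 measured pigment cell markers, the lineage factor SOX10 averaged 9.38, 9.53, 9.48 and 9.21 in A375 vemurafenib, A375 DMSO, A2058 vemurafenib and A2058 DMSO arrays. The pigment enzyme TYR averaged 4.57 in both A375 groups, near the array floor, but 11.38 in A2058 vemurafenib and 10.93 in A2058 DMSO arrays. Of the 11 markers 4 rose and 3 fell with vemurafenib in A375, beside 17.7% and 19.3% of all genes. In A2058, 7 rose and 1 fell, beside 14.6% and 12.5% of all genes. Without A375 vemurafenib replicate 2 or 3 or A375 DMSO replicate 2, 2 rose in A375. In A2058 TYRP1 (3.26 ± 0.134), PMEL (2.43 ± 0.0553) and MLANA (2.33 ± 0.047), all genes of pigment production, rose most, and CSPG4, a melanoma surface proteoglycan, fell in both lines (-1.88 ± 0.0597 in A375, -1.07 ± 0.0597 in A2058). The part of these changes in the members' results was not tested.

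PTPRC, the defining blood cell marker, stood at 4.15 to 4.17 in all groups and EPCAM, the epithelial marker, at 4.48 to 4.55. The median marker mean was 5.02 to 5.13 for fibroblasts, 5.08 to 5.41 for blood and immune cells, 4.71 to 5.24 for epithelium and 4.77 to 4.80 for endothelium. Some markers of these lists were brighter. CD68, of the blood and immune list, averaged 10.16 in A375 vemurafenib, 9.24 in A375 DMSO, 8.53 in A2058 vemurafenib and 8.32 in A2058 DMSO arrays. KDR, of the endothelial list, averaged 6.78, 6.91, 5.06 and 5.7 in the same order. Of the 28 markers of these lists 4 rose and 5 fell in A375 with vemurafenib, beside 17.7% and 19.3% of all genes. In A2058, 1 rose and 3 fell, beside 14.6% and 12.5% of all genes. Without A375 vemurafenib replicate 1, 8 fell in A375 and 3 rose in A2058, and without A2058 vemurafenib replicate 3, 2 rose in A2058. LUM, a fibroblast matrix gene, had the largest rise in A375 (2.15 ± 0.108, at 6.37 with vemurafenib and 4.22 with DMSO). LYZ, the lysozyme of myeloid cells, had the largest fall in both lines, -1.27 ± 0.103 in A375 (6.56 with vemurafenib and 7.83 with DMSO) and -2.12 ± 0.103 in A2058 (4.79 with vemurafenib and 6.91 with DMSO). Their part in the results was not tested either. Fewer cells of a kind and less RNA per cell cannot be told apart in such samples.

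Most of the pathway fell with vemurafenib in both lines. The members and lists were chosen with earlier results of these data known. Their counts beside the shares of all genes are therefore a description and no test. In A375, 24 of 32 members fell, 5 rose and 3 were not called, where 19.3% of all genes fell and 17.7% rose. In A2058, 21 fell, 6 rose and 5 were not called, where 12.5% of all genes fell and 14.6% rose. Since 31 of the 32 members are brighter than the median gene, the 9202 genes at or above it were also fitted alone. Of these brighter genes 2948 fell and 2633 rose in A375, and 2116 fell and 2372 rose in A2058. The shares of all genes given here include the dim ones. The median change of the members was -0.61 in A375 and -0.25 in A2058, beside 0.0042 and 0.0064 for all genes. A fall was called in both lines for 20 members, against 6.85% of all genes, and a rise in both lines for 4 (PFKFB2, BPGM, PDP1 and MPC1), against 6.52% of all genes. Changes of at least 2-fold were called for 11 members in A375, against 4.2% of all genes, and for 7 in A2058, against 1.98%.

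**Figure D1:**
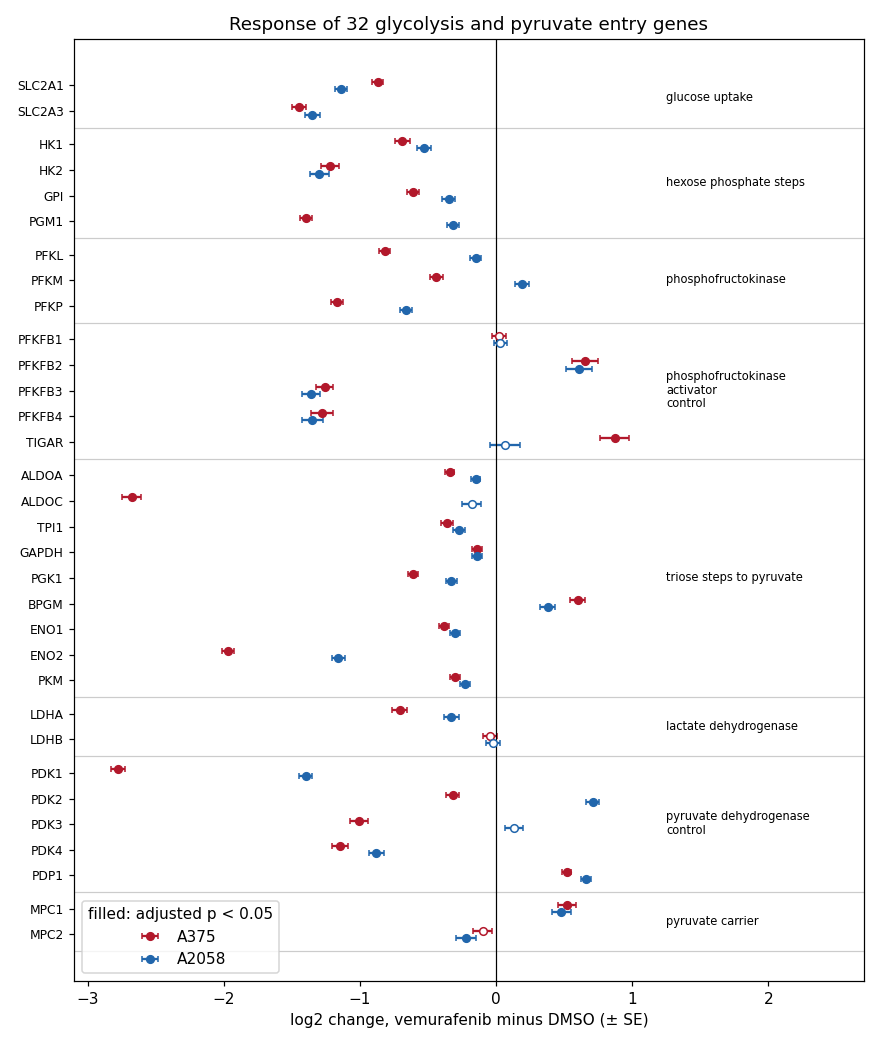
Log2 change with vemurafenib minus DMSO (± SE, 3 arrays per group) of the 32 measured genes, ordered by pathway step, for A375 in red and A2058 in blue; filled points were called at an adjusted p under 0.05. Both glucose transporters and all 4 hexose phosphate genes lie left of 0 in both lines, and PFKFB2, BPGM, PDP1 and MPC1 lie right of it in both.

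Both glucose transporters fell in both lines. SLC2A3, a transporter with high affinity for glucose, had log2 signals of 7.68, 7.69 and 7.65 in A375 vemurafenib arrays, against 9.04, 9.14 and 9.20 in A375 DMSO arrays. In A2058 it had 7.47, 7.33 and 7.30 with vemurafenib, against 8.68, 8.73 and 8.73 with DMSO. The groups were far apart in each line, with changes of -1.45 ± 0.0534 in A375 (adjusted p = 2.65e-10) and -1.35 ± 0.0534 in A2058 (adjusted p = 1.42e-09). SLC2A1, the widespread glucose transporter, changed by -0.87 ± 0.0415 in A375 and -1.14 ± 0.0415 in A2058. Of the 20 members that fell in both lines, SLC2A1 alone had a fall that was larger in A2058 by the test of the difference (A375 response minus A2058 response 0.27 ± 0.0587, adjusted p = 0.00368).

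The genes that make and route hexose phosphates all fell in both lines. HK2, the inducible hexokinase, had 9.07, 9.04 and 8.85 in A375 vemurafenib arrays, against 10.18, 10.18 and 10.25 in A375 DMSO arrays. It had 8.20, 8.30 and 8.24 in A2058 vemurafenib arrays, against 9.42, 9.61 and 9.62 in A2058 DMSO arrays. These falls of -1.22 ± 0.068 (adjusted p = 1.42e-08) and -1.3 ± 0.068 (adjusted p = 1.72e-08) were larger than those of HK1, the housekeeping hexokinase, at -0.69 ± 0.0538 and -0.53 ± 0.0538. GPI, which turns glucose phosphate into fructose phosphate, changed by -0.61 ± 0.0445 in A375 and -0.35 ± 0.0445 in A2058.

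PGM1, the phosphoglucomutase that joins glycogen to glycolysis, responded unequally. It had 8.68, 8.80 and 8.83 in A375 vemurafenib arrays, against 10.21, 10.16 and 10.14 in A375 DMSO arrays. In A2058 the values were 9.98, 10.00 and 10.01 with vemurafenib, against 10.33, 10.29 and 10.34 with DMSO. All vemurafenib arrays lay below the DMSO arrays of their line, but the fall was -1.4 ± 0.0447 in A375 (adjusted p = 6.52e-11) and -0.32 ± 0.0447 in A2058 (adjusted p = 0.000119), a difference of -1.08 ± 0.0632 (adjusted p = 5.51e-08).

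The phosphofructokinase subunits separated the lines. PFKP, the platelet type subunit, fell in both, with changes of -1.17 ± 0.0445 in A375 and -0.66 ± 0.0445 in A2058. PFKL, the liver type, changed by -0.82 ± 0.0423 in A375 and -0.15 ± 0.0423 in A2058 (adjusted p = 0.0185). PFKM, the muscle type, had 8.94, 8.93 and 8.90 in A375 vemurafenib arrays, against 9.42, 9.30 and 9.37 in A375 DMSO arrays. In A2058 PFKM had 9.22, 9.20 and 9.07 with vemurafenib, against 8.93, 9.0 and 9.01 with DMSO, so that the order of the groups was turned round. Its change was -0.44 ± 0.0482 in A375 (adjusted p = 8.56e-06) and 0.19 ± 0.0482 in A2058 (adjusted p = 0.0108), and the responses differed by -0.63 ± 0.0681 (adjusted p = 1.42e-05). The A2058 calls of PFKL and PFKM are narrow: PFKL was at an adjusted p of 0.0508 to 0.0616 without A2058 vemurafenib replicate 1 or 2 or A2058 DMSO replicate 2 or 3 and at 0.113 with the arrays quantile normalized again, and PFKM at 0.0537 without A2058 vemurafenib replicate 1 and 0.0533 without A2058 DMSO replicate 1.

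The PFKFB enzymes make and break down the activator of phosphofructokinase, and their isozymes went opposite ways. PFKFB3, an isozyme that mostly makes the activator, had 7.99, 8.15 and 8.22 in A375 vemurafenib arrays, against 9.40, 9.38 and 9.36 in A375 DMSO arrays. It had 8.41, 8.43 and 8.60 in A2058 vemurafenib arrays, against 9.79, 9.83 and 9.90 in A2058 DMSO arrays. With no overlap in either line, its changes were -1.26 ± 0.0637 (adjusted p = 5.48e-09) and -1.36 ± 0.0637 (adjusted p = 6.14e-09). PFKFB4 had 7.36, 7.54 and 7.47 in A375 vemurafenib arrays, against 8.69, 8.72 and 8.79 in A375 DMSO arrays. In A2058 PFKFB4 had 5.96, 6.05 and 6.32 with vemurafenib, against 7.42, 7.47 and 7.47 with DMSO. It fell by nearly the same amount as PFKFB3, at -1.28 ± 0.0775 in A375 (adjusted p = 3.29e-08) and -1.35 ± 0.0775 in A2058 (adjusted p = 4.42e-08).

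PFKFB2, the heart type isozyme, rose in both lines. It had 6.65, 7.05 and 6.92 in A375 vemurafenib arrays, against 6.33, 6.14 and 6.19 in A375 DMSO arrays. It had 6.87, 6.98 and 6.75 in A2058 vemurafenib arrays, against 6.17, 6.27 and 6.34 in A2058 DMSO arrays. Its rises of 0.65 ± 0.0955 (adjusted p = 0.000111) and 0.61 ± 0.0955 (adjusted p = 0.000339) ran against PFKFB3: the change of PFKFB3 minus that of PFKFB2 was -1.91 in A375 and -1.97 in A2058, given as a description with no test. PFKFB1 was not called in either line (0.022 ± 0.0505 and 0.032 ± 0.0505).

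TIGAR, which breaks the same activator down and is known as a target of p53, rose in A375. It had 6.91, 7.38 and 7.42 in A375 vemurafenib arrays, against 6.42, 6.24 and 6.44 in A375 DMSO arrays. In A2058 it had 6.08, 6.02 and 6.07 with vemurafenib, against 6.04, 5.88 and 6.05 with DMSO. The A375 groups were separate although replicate 1 of the vemurafenib group lay below replicates 2 and 3, and the change was 0.87 ± 0.11 (adjusted p = 3.2e-05), or 1.03 ± 0.0642 without that array. The A2058 change was 0.067 ± 0.11 (adjusted p = 0.785), and the responses differed by 0.8 ± 0.156 (adjusted p = 0.00154).

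In the steps from aldolase to pyruvate, 8 of 9 members fell in A375 and 7 of 9 in A2058, beside 19.3% and 12.5% of all genes. The largest change of these steps was in an isozyme better known from nervous tissue in each line, ALDOC in A375 and ENO2 in A2058. ALDOC, the brain aldolase, had 8.0, 8.05 and 7.85 in A375 vemurafenib arrays, against 10.67, 10.64 and 10.64 in A375 DMSO arrays. In A2058 it had 5.39, 5.67 and 5.58 with vemurafenib, against 5.73, 5.76 and 5.69 with DMSO, low in both groups. The change was -2.68 ± 0.0692 in A375 (6.42-fold lower, adjusted p = 8.4e-12) and -0.18 ± 0.0692 in A2058 (adjusted p = 0.0804), a difference of -2.5 ± 0.0979 (adjusted p = 1.22e-09). ALDOC is dim in A2058, where such arrays understate changes, and without A2058 vemurafenib replicate 2 that change was -0.24 and called (adjusted p = 0.0273).

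ENO2, the neuronal enolase, fell in both lines. It had 7.81, 7.79 and 7.87 in A375 vemurafenib arrays, against 9.78, 9.74 and 9.86 in A375 DMSO arrays. It had 7.83, 7.72 and 7.79 in A2058 vemurafenib arrays, against 8.88, 8.95 and 8.97 in A2058 DMSO arrays. The lines therefore reached the same range with vemurafenib after falls of -1.97 ± 0.0458 (adjusted p = 3.21e-12) and -1.16 ± 0.0458 (adjusted p = 1.42e-09), which differed by -0.82 ± 0.0648 (adjusted p = 8.51e-07).

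The other called falls of these steps were smaller than those of ENO2 in both lines and of ALDOC in A375. Several of these genes are very bright: TPI1, ENO1, PKM and GAPDH averaged 11.89, 12.39, 11.76 and 12.78 in A375 DMSO arrays. Whether their changes are understated for that reason was not tested. ALDOA, the widespread aldolase, changed by -0.34 ± 0.0329 in A375 and -0.15 ± 0.0329 in A2058. TPI1, which interconverts the triose phosphates, and PGK1, which makes ATP, fell by 0.36 and 0.61 in A375 and by 0.27 and 0.33 in A2058 on the log2 scale. ENO1, the widespread enolase, and PKM, the pyruvate kinase, fell by 0.38 and 0.3 in A375 and by 0.3 and 0.23 in A2058. GAPDH, often used as a loading control, had the smallest called fall in each line, -0.14 ± 0.0384 in A375 (adjusted p = 0.0105) and -0.14 ± 0.0384 in A2058 (adjusted p = 0.0132). That call is the weakest of the step by its adjusted p. Without A2058 DMSO replicate 3 the A2058 change was at an adjusted p of 0.0543. With the arrays quantile normalized again the change was -0.067 in A375 (adjusted p = 0.34) and 0 in A2058. GAPDH had the highest mean signal of all genes (12.72), and that step gives genes of equal rank the same value in every array. It therefore cannot judge a gene that keeps its rank in every array, which would give the 0 seen in A2058. In A375 the change was not 0, so GAPDH did not keep its rank in every array there. The lost A375 call remains a limit.

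BPGM, a mutase of the side path that red blood cells use to make bisphosphoglycerate, rose in both lines. It had 7.22, 7.23 and 7.21 in A375 vemurafenib arrays, against 6.54, 6.57 and 6.75 in A375 DMSO arrays. It had 7.78, 7.72 and 7.76 in A2058 vemurafenib arrays, against 7.35, 7.32 and 7.44 in A2058 DMSO arrays. All vemurafenib arrays lay above the DMSO arrays of their line, with rises of 0.6 ± 0.0543 (adjusted p = 1.5e-06) and 0.38 ± 0.0543 (adjusted p = 0.000147).

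The lactate dehydrogenases moved apart. LDHA, the subunit that favours lactate, had 11.34, 11.48 and 11.49 in A375 vemurafenib arrays, against 12.14, 12.17 and 12.13 in A375 DMSO arrays, and changed by -0.71 ± 0.0539 (adjusted p = 2.98e-07). In A2058 it had 11.92, 11.90 and 11.90 with vemurafenib, against 12.32, 12.13 and 12.26 with DMSO, and changed by -0.33 ± 0.0539 (adjusted p = 0.000446). LDHB, the subunit that favours pyruvate, was not called in either line, at -0.047 ± 0.0497 (adjusted p = 0.555) and -0.022 ± 0.0497 (adjusted p = 0.854). Its arrays lay between 11.38 and 11.60 in all 4 groups, and the groups overlapped.

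**Figure D2:**
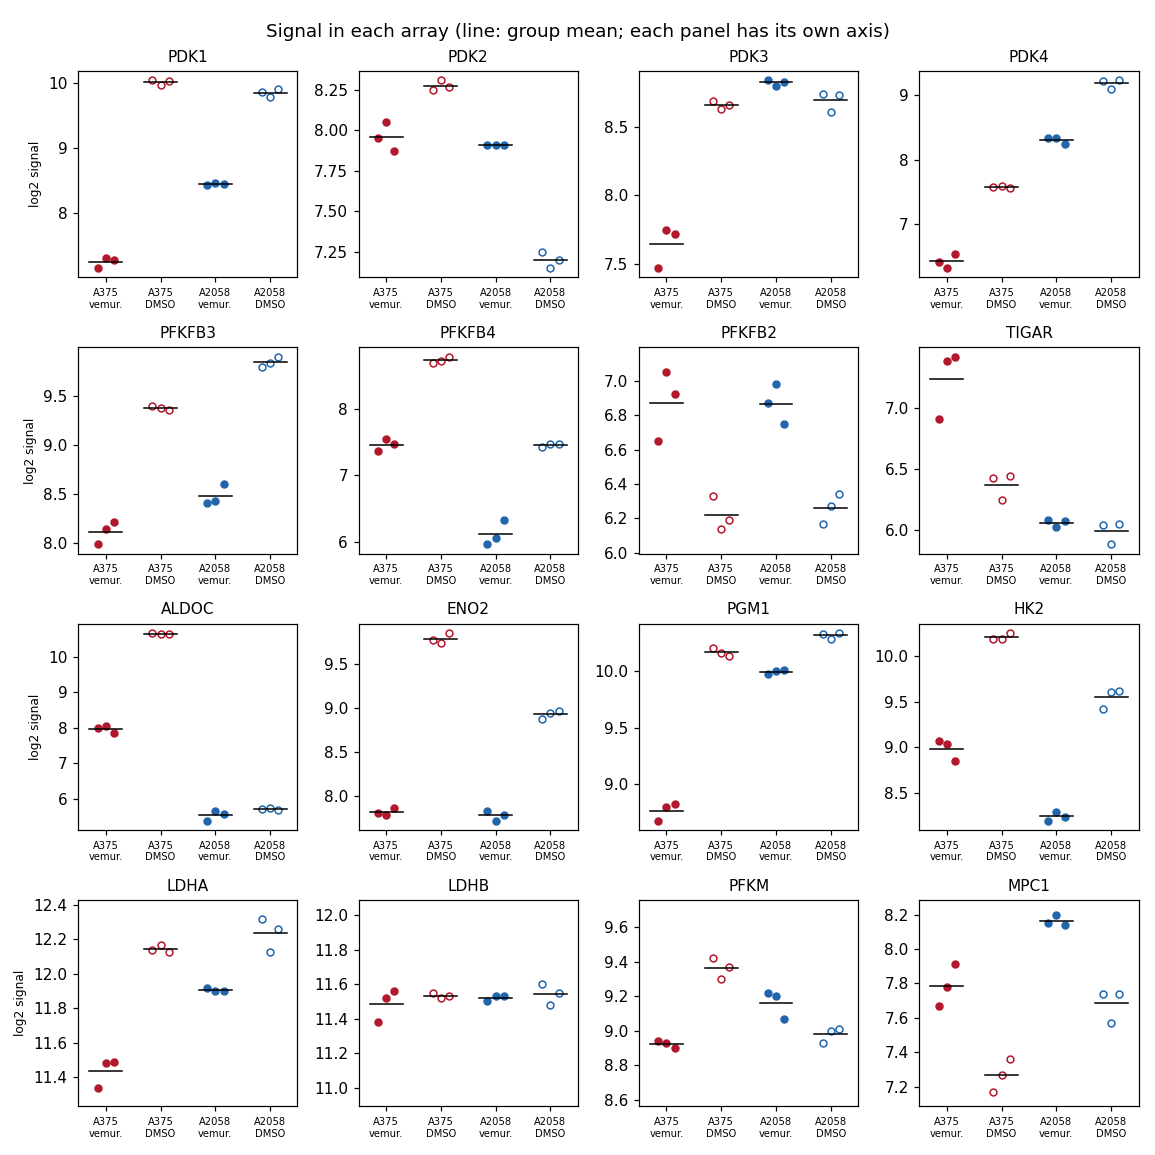
Log2 signal of 16 genes in each array (points, 3 per group; line, group mean), with vemurafenib filled and DMSO open, A375 in red and A2058 in blue; each panel has its own axis. PDK1, ENO2, HK2 and PFKFB3 are low in both vemurafenib groups, PDK2 and PFKM change order between the lines, and the LDHB groups overlap.

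The control of pyruvate dehydrogenase held the largest fall of all members. PDK1, a kinase that inactivates the enzyme, had 7.15, 7.31 and 7.27 in A375 vemurafenib arrays, against 10.05, 9.98 and 10.03 in A375 DMSO arrays. In A2058 it had 8.43, 8.46 and 8.45 with vemurafenib, against 9.86, 9.79 and 9.91 with DMSO. The groups were far apart in both lines, and PDK1 was 6.85-fold lower in A375 (-2.78 ± 0.0491, adjusted p = 3.15e-13) and 2.65-fold lower in A2058 (-1.4 ± 0.0491, adjusted p = 4.84e-10). The responses differed by -1.37 ± 0.0694 (adjusted p = 1.37e-08).

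The other PDK kinases did not share 1 direction. PDK4, the kinase known to respond to fasting, had 6.41, 6.32 and 6.54 in A375 vemurafenib arrays, against 7.57, 7.59 and 7.56 in A375 DMSO arrays. In A2058 PDK4 had 8.33, 8.33 and 8.24 with vemurafenib, against 9.22, 9.09 and 9.23 with DMSO. It fell in both lines, with changes of -1.15 ± 0.0578 (adjusted p = 5.21e-09) and -0.88 ± 0.0578 (adjusted p = 1.49e-07). PDK3 had 7.47, 7.75 and 7.72 in A375 vemurafenib arrays, against 8.69, 8.63 and 8.66 in A375 DMSO arrays. In A2058 PDK3 had 8.84, 8.80 and 8.83 with vemurafenib, against 8.74, 8.61 and 8.73 with DMSO. It fell in A375 (-1.01 ± 0.0656, adjusted p = 6.38e-08) and was not called in A2058 (0.13 ± 0.0656, adjusted p = 0.201; 0.0297 without A375 vemurafenib replicate 1), and the responses differed by -1.14 ± 0.0927 (adjusted p = 1.06e-06).

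PDK2, the kinase found in most tissues, was called in opposite directions. It had 7.95, 8.05 and 7.87 in A375 vemurafenib arrays, against 8.25, 8.31 and 8.27 in A375 DMSO arrays. In A2058 it had 7.91, 7.91 and 7.91 with vemurafenib, against 7.25, 7.15 and 7.20 with DMSO. Its change was -0.32 ± 0.0474 in A375 (adjusted p = 0.000111) and 0.71 ± 0.0474 in A2058 (adjusted p = 1.67e-07), a difference of -1.04 ± 0.067 (adjusted p = 1.3e-07). PDK2 and PFKM were the 2 members called down in A375 and up in A2058.

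PDP1, the phosphatase that opposes the kinases, rose in both lines. It had 10.10, 10.08 and 10.06 in A375 vemurafenib arrays, against 9.57, 9.54 and 9.57 in A375 DMSO arrays. It had 10.24, 10.23 and 10.23 in A2058 vemurafenib arrays, against 9.57, 9.59 and 9.55 in A2058 DMSO arrays. The arrays of each group lay close together, and the rises were 0.52 ± 0.0338 (adjusted p = 6.77e-08) and 0.66 ± 0.0338 (adjusted p = 1.46e-08).

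The mitochondrial pyruvate carrier is built from MPC1 and MPC2, and both are needed for transport. MPC1 had 7.67, 7.78 and 7.91 in A375 vemurafenib arrays, against 7.17, 7.27 and 7.36 in A375 DMSO arrays. It had 8.15, 8.20 and 8.14 in A2058 vemurafenib arrays, against 7.74, 7.57 and 7.74 in A2058 DMSO arrays. MPC1 rose by 0.52 ± 0.0683 (adjusted p = 4.13e-05) and 0.48 ± 0.0683 (adjusted p = 0.000155), while its partner MPC2 was at -0.1 ± 0.0724 in A375 (adjusted p = 0.346) and -0.22 ± 0.0724 in A2058 (adjusted p = 0.0438). The MPC2 call in A2058 was lost in 11 of 21 alternatives, with adjusted p up to 0.185, among them the omission of any A2058 vemurafenib array, of any A375 DMSO array and of A2058 DMSO replicate 1 or 2.

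Across 13 pairs of isozymes or partners, given as a description, the first named gene changed less upward or more downward than the second in both lines for SLC2A3 and SLC2A1 (-0.58 in A375, -0.21 in A2058), HK2 and HK1 (-0.54, -0.77), PFKP and PFKM (-0.73, -0.85), and LDHA and LDHB (-0.66, -0.31). The gap was wider for ENO2 and ENO1 (-1.59, -0.86) and for PDK1 and PDK2 (-2.45, -2.12). ENO1 is among the brightest genes, with means of 12.39 in A375 DMSO and 12.27 in A2058 DMSO arrays. Whether the changes of such bright genes are understated was not tested. ALDOC and ALDOA were at -2.34 in A375 and -0.026 in A2058, where the arrays overlapped. MPC1 and MPC2 ran the other way in both lines (0.63 in A375, 0.69 in A2058).

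Promoter sequences are shown for the members that fell most in A375, for the unequal lactate dehydrogenase pair and for TIGAR, which was called up in A375 alone. They are RefSeq GRCh38.p14 windows of 300 bases, 250 before to 50 after the annotated start, which matched 29 of the 32 measured members. The motifs searched, on both strands, were ACGTG, the core of the hypoxia response element, and the E-box CACGTG, which contains it on both strands. PDK1 lies at chr2:172555123-172555422 (+), ALDOC at chr17:28576846-28577145 (-), LDHA at chr11:18394313-18394612 (+), LDHB at chr12:21657793-21658092 (-) and TIGAR at chr12:4320963-4321262 (+). Capitals mark ACGTG or its reverse complement CACGT, and each sequence runs 5′ to 3′ on the gene's strand.
PDK1: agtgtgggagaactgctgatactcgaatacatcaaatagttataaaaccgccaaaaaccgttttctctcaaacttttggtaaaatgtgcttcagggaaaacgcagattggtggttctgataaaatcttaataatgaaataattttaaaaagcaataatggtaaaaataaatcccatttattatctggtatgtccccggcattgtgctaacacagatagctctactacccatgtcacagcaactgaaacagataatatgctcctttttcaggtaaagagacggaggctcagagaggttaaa
ALDOC: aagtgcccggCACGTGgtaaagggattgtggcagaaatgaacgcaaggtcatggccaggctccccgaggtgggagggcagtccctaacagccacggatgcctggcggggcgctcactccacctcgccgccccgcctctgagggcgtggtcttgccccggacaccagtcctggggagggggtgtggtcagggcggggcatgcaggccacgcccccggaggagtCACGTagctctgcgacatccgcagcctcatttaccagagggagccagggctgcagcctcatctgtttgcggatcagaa
LDHA: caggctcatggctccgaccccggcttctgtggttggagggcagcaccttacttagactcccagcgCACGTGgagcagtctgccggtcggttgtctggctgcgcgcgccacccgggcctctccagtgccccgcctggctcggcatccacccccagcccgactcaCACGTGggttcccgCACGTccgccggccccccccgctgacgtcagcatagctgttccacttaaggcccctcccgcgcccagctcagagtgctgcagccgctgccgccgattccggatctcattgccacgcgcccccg
LDHB: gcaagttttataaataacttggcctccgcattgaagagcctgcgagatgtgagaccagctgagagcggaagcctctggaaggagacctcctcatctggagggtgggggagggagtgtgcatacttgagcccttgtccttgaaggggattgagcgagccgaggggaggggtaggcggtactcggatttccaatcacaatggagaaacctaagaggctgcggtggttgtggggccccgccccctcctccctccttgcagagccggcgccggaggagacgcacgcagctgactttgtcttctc
TIGAR: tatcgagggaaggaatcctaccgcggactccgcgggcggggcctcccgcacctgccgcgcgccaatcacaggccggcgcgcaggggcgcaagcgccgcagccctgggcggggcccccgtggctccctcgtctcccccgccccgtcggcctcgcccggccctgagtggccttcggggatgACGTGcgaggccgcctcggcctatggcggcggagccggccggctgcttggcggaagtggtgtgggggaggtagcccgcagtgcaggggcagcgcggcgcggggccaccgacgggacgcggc

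The LDHA window held 5 matches, counted on both strands, and the ALDOC window 3, with the nearest to the start at -73 in LDHA and -28 in ALDOC. TIGAR had 1, at -71, and PDK1 and LDHB had none in this window. Over the members, 11 of 29 windows held ACGTG (37.9%), beside 21.4% of 35114 promoters. The 35114 are all entries of the promoter set and were not limited to a single window per measured gene, as the members were. Of the 19 members with a window that fell in both lines 7 held it, and of the other 10 members 4 did. CACGTG stood in 3 of 29 windows (10.3%), beside 7.26% of all. These are matches of letters and say nothing on the binding of a factor.

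The responses of the lines were compared directly, by the interaction term of the same fit. It was called for 18 of 32 members. Of these, 15 had a lower change in A375, where 16.4% of all genes were called in that direction. The other 3 had a higher one (SLC2A1, BPGM and TIGAR), where 13.1% of all genes were called. Of the 9202 brighter genes, 2513 were called lower and 2057 higher. Of the 20 members that fell in both lines, 10 fell more in A375 and SLC2A1 fell more in A2058 by this test, and 9 were not called. The uncalled ones included SLC2A3, HK2, PFKFB3 and PFKFB4, with differences of -0.11 ± 0.0756, 0.083 ± 0.0961, 0.098 ± 0.0901 and 0.067 ± 0.11. The calls of some differences are narrow: BPGM (0.22, adjusted p = 0.0491), PDP1 (-0.14, adjusted p = 0.0422) and PDK4 (-0.27, adjusted p = 0.0243) were lost in 11, 13 and 6 of 20 alternatives, most of them the omission of 1 array.

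**Figure D3:**
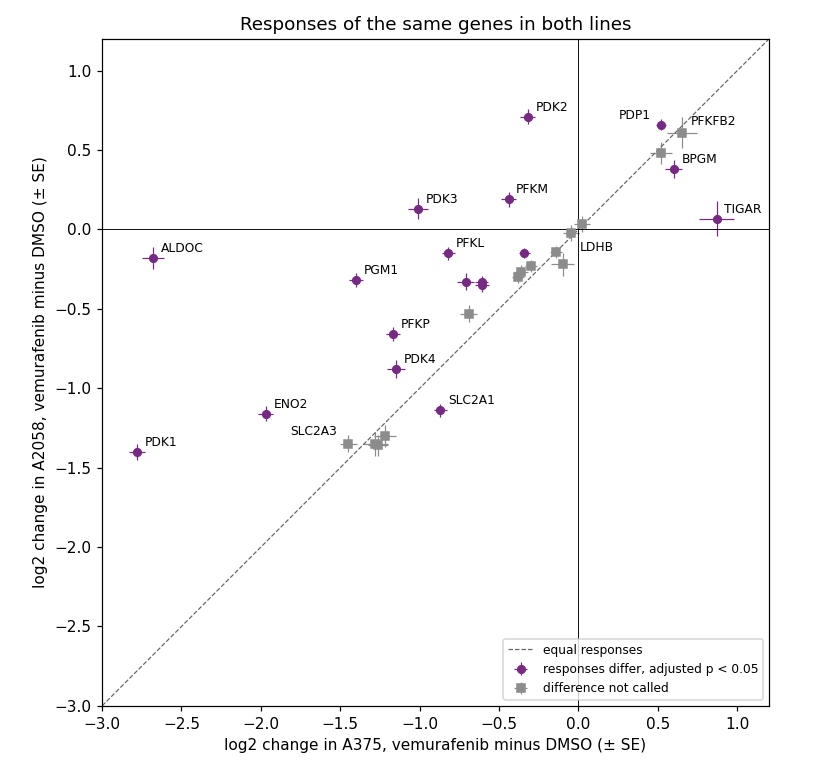
Log2 change (± SE) of each of the 32 genes in A375 on the horizontal axis and in A2058 on the vertical axis; purple points have responses called different between the lines and grey squares do not, and the dashed line marks equal responses. PDK1, ALDOC, ENO2 and PGM1 lie far above the line, SLC2A1 lies below it, and PDK2 and PFKM are in the upper left part.

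Without the inhibitor the lines differed in part of the pathway, as they did in many other genes. With DMSO, 13 members were higher and 7 lower in A375 than in A2058, where 23.9% of all genes were higher and 22.5% lower. Of the 9202 brighter genes, 3311 were higher and 3364 lower. A call in either direction was thus no more common among the members than among brighter genes. The median difference of the members was 0.0098. The samples of each line were entered as a separate block. A difference between the lines, here and with vemurafenib, therefore cannot be told apart from one between possible processing runs. ALDOC had the largest difference, 4.93 ± 0.0692 (adjusted p = 5.11e-14), with means of 10.65 in A375 and 5.73 in A2058; it is dim in A2058, so no fold is given and the difference may be understated. PFKFB4 (1.28 ± 0.0775), PDK2 (1.08 ± 0.0474) and ENO2 (0.86 ± 0.0458) were also higher in A375, and PDK4 (-1.6 ± 0.0578), MPC2 (-0.79 ± 0.0724) and BPGM (-0.75 ± 0.0543) were lower. Small calls at this comparison depended on single arrays: TIGAR (0.38) was at an adjusted p of 0.0537 and PDK1 (0.17) at 0.0619 without A2058 DMSO replicate 2, PDK1 at 0.0519 without A375 DMSO replicate 1, and PGM1 (-0.15) at 0.0539 without A375 DMSO replicate 3. ENO1 (0.11, adjusted p = 0.0202) was lost in 5 of 21 alternatives: without A375 DMSO replicate 2 or 3 or A2058 DMSO replicate 2 (0.0635 to 0.0747), with each array centred on its median (0.0595) and with the arrays quantile normalized again (0.049, adjusted p = 0.423).

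With vemurafenib, 6 members were higher and 14 lower in A375 than in A2058, where 22.7% of all genes were higher and 24.2% lower. Of the 9202 brighter genes, 3149 were higher and 3509 lower. Again a call in either direction was no more common among the members than among brighter genes. These comparisons share their arrays with the responses, so the values are only set side by side. PDK1 was at -1.2 with vemurafenib and 0.17 with DMSO, PGM1 at -1.23 and -0.15, PDK3 at -1.18 and -0.038, and PFKL at -1.0 and -0.33. PDK2 and ENO2, higher in A375 with DMSO, were at 0.047 ± 0.0474 and 0.045 ± 0.0458 with vemurafenib and not called. ALDOC stayed higher in A375 at 2.42 ± 0.0692, and TIGAR was at 1.18 ± 0.11.

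**Figure D4:**
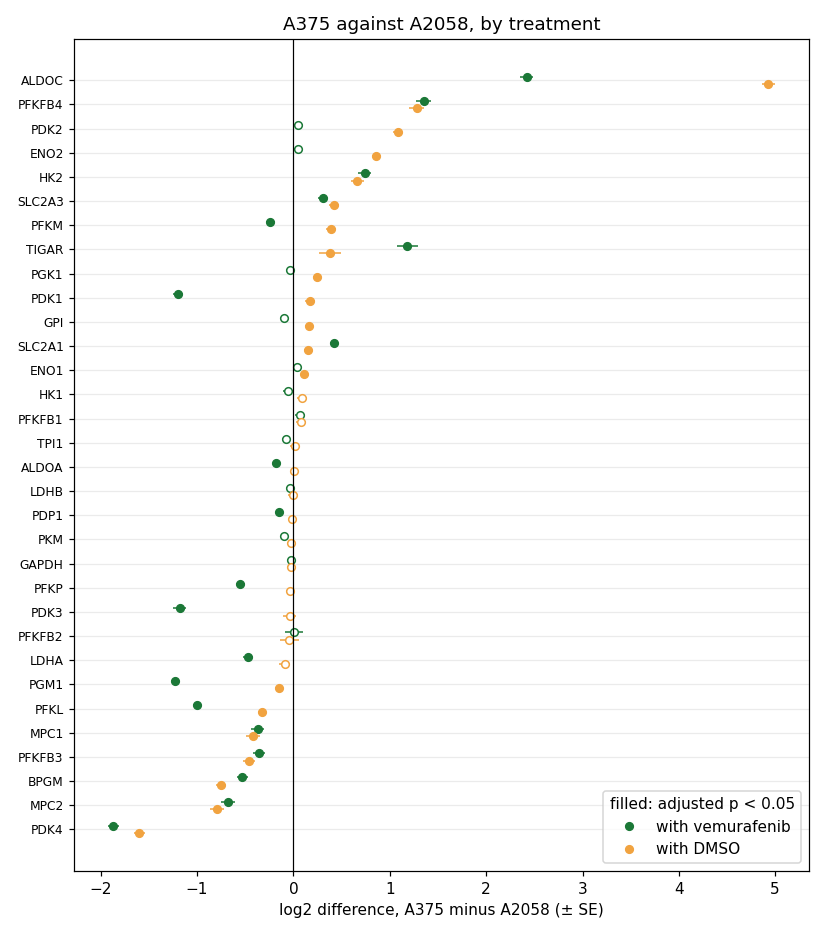
Log2 difference A375 minus A2058 (± SE) of the 32 genes with vemurafenib in green and with DMSO in orange; filled points were called at an adjusted p under 0.05. ALDOC reaches 4.93 with DMSO and 2.42 with vemurafenib, and PDK1, PGM1, PDK3 and PFKL lie near -1 with vemurafenib and near 0 or just below or above it with DMSO.

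Genes around the pathway were counted in the same way, list by list. Of all genes, 17.7% rose and 19.3% fell in A375, and 14.6% rose and 12.5% fell in A2058. Among 26 measured other isozymes and transporters, 3 rose and 3 fell in A375 and 1 rose and 3 fell in A2058, with medians of 0.0013 and 0.014. Many of these genes were dim, such as HK3, PGK2 and LDHC with means of 4.61, 4.29 and 4.22 in A375 DMSO arrays, though BSG averaged 11.41. Such arrays understate changes of dim genes, so these counts and medians are not like those of the members. The single rise in A2058 was lost without A2058 vemurafenib replicate 3, A2058 DMSO replicate 1 or A2058 DMSO replicate 3, and 2 rises were called without A375 vemurafenib replicate 1 or 3 or A2058 vemurafenib replicate 2. HKDC1, a hexokinase domain gene, rose in A375 (1.18 ± 0.0754, adjusted p = 5.64e-08), and EMB, a partner of lactate transporters, fell in A2058 (-0.45 ± 0.0716, adjusted p = 0.000347). Among 12 genes of the pyruvate dehydrogenase complex and of pyruvate use, 3 rose and 3 fell in A375 and 2 rose and 2 fell in A2058. ME2, a mitochondrial malic enzyme, was at 0.5 ± 0.0665 in A375 and -0.5 ± 0.0665 in A2058, and ME1, its cytoplasmic relative, fell in A2058 (-0.56 ± 0.0515).

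Glycogen and gluconeogenesis genes fell more often than they rose. In A375, 10 of 19 fell and 2 rose, beside 19.3% and 17.7% of all genes. In A2058, 8 fell and 2 rose, beside 12.5% and 14.6% of all genes. The medians were -0.21 and -0.11. Without A2058 DMSO replicate 3 a single rise was called in A2058. PYGB, the brain glycogen phosphorylase, changed by -2.09 ± 0.0508 in A375 (adjusted p = 5.1e-12) and -0.19 ± 0.0508 in A2058, and UGP2, which makes the glycogen precursor, by -0.78 ± 0.0926 in A2058. In the pentose phosphate and hexosamine branches 5 of 10 genes fell in A375 and 3 in A2058, beside 19.3% and 12.5% of all genes. None was called up. UAP1, which makes the activated sugar of the hexosamine branch, had the largest called change there in both lines, -0.48 ± 0.0902 in A375 and -0.68 ± 0.0902 in A2058. The A2058 count was 5 without A375 vemurafenib replicate 1 or without A2058 vemurafenib replicate 1, and 2 genes were called up in A375 without A375 vemurafenib replicate 1 and 1 without A2058 vemurafenib replicate 3.

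Of 21 measured regulators, 3 rose and 10 fell in A375, beside 17.7% and 19.3% of all genes. In A2058, 6 rose and 4 fell, beside 14.6% and 12.5% of all genes. PRKAA2, a catalytic subunit of the energy sensor AMPK, had the largest called change in A375 (-1.25 ± 0.0637), and EPAS1, a hypoxia factor, the largest in A2058 (1.99 ± 0.0739, adjusted p = 8.38e-10). HIF1A fell in both lines (-0.31 ± 0.0689, adjusted p = 0.00302, and -0.33 ± 0.0689, adjusted p = 0.00283). MYC also fell, with changes of -0.72 ± 0.0767 in A375 (adjusted p = 6.54e-06) and -0.32 ± 0.0767 in A2058 (adjusted p = 0.00766). TXNIP, which limits glucose uptake and is known to be induced by glucose, rose by 1.14 ± 0.0412 in A375 (adjusted p = 2.23e-10) and 0.69 ± 0.0412 in A2058 (adjusted p = 6.15e-08). Whether these regulators have a part in the members' changes was not tested.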

How the data were processed

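Total RNA of 12 samples was hybridised to Affymetrix Human Gene 1.0 ST arrays after Qiagen isolation, Ambion WT Expression amplification and Affymetrix terminal labelling, per the labels' protocols. The log2 values deposited by the authors were used as given; R 3.0.1 and affy are named in the submitters' processing notes, and the summary method is not given in the sources used here. The values ran from 3.24 to 13.08 with nearly equal quartiles between arrays, so they were taken as already normalized, which removes any change shared by all genes. Arrays have no read depth, and their number limits the precision.

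Of 32321 probe sets, 19158 carried 1 symbol, 1388 several and 11775 none. Symbols were updated through Entrez numbers with the GRCh38.p14 RefSeq table (19128 matched), leaving 18404 genes; 637 genes had several probe sets, TPI1 among the members, and kept the brightest. Groups came from the sample titles. limma 3.58.1 in R 4.3.3 (lmFit, contrasts.fit, eBayes) fitted 4 group means to all 12 arrays, with 8 residual and 3.98 prior degrees of freedom; tests were two-sided, and the fit was tested on simulated data. No coordinates of probe sets are given, since no build is named for them.

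The members, pairs and lists were chosen with earlier results of these data known. Values in every array are given for the 6 members with the largest change in each line, the 5 with the largest difference between the responses, the 5 with the largest difference between the lines under DMSO and those called against most members; LDHA and LDHB were added after their values were seen. Of the other lists, the called gene with the largest change in each line is named, plus HIF1A, MYC and TXNIP. Alternatives changed the normalization, the arrays in the fit, the replicate number as a block, array weights, the variance prior, the filter on dim genes and the probe sets used.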

Additional observations from a re-analysis of the deposited data

Results flagged for a closer look

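The responses to vemurafenib differed between A375 and A2058 for 18 members by the interaction term of the limma fit (adjusted p under 0.05, A375 response minus A2058 response). A fall that was larger in A375, or a fall there beside a rise or no call in A2058, gave differences of -2.5 for ALDOC, -1.37 for PDK1, -1.14 for PDK3, -1.08 for PGM1, -1.04 for PDK2, -0.82 for ENO2, -0.67 for PFKL, -0.63 for PFKM and -0.51 for PFKP. Smaller differences of the same sign were -0.38 for LDHA, -0.28 for PGK1, -0.27 for PDK4, -0.26 for GPI and -0.19 for ALDOA. PDP1, which rose in both lines, rose less in A375 (-0.14). SLC2A1 fell less in A375 (0.27), BPGM rose more there (0.22), and TIGAR was called up in A375 alone (0.8). No test for an outlying value of a single gene was run in these groups of 3 arrays.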

How the results depend on the processing

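Each of the 5 comparisons was recomputed under 20 or 21 alternatives, and every count of members called stayed within 1.5 times its value. Leaving out 1 array at a time, the members called down ranged from 24 to 24 in A375 and from 19 to 21 in A2058, those called up from 5 to 5 and from 5 to 7, and the called differences between responses from 13 to 15 lower and from 2 to 4 higher in A375. Quantile normalization repeated on the deposited values gave 23 and 19 falls, and the GAPDH call was lost in both lines. That setting fixes the value of each rank, so it cannot judge a gene that keeps its rank. GAPDH, the gene with the highest mean signal, was at 0 in A2058 but at -0.067 in A375, where the lost call remains a limit. Of 160 member values, 20 had a call changed by some alternative; the cause was not tested. The ENO2 minus ENO1 change was -1.67 in A375 and -0.92 in A2058 under repeated quantile normalization. The ALDOC minus ALDOA change in A2058 ranged from -0.084 to 0.057 when arrays were left out, turning positive without A2058 vemurafenib replicate 1. In the shorter promoter window, 100 bases before to 50 after the start, ACGTG stood in 27.6% of members and 12.3% of all promoters, and CACGTG in 6.9% and 4.37%. ACGTG stood there in 4 of the 19 members that fell in both lines and in 4 of the other 10.

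Replicate numbers showed no sign of pairing the samples, though 3 arrays per group cannot exclude it. Deviations of same-numbered arrays correlated at -0.197, 0.0996 and -0.128 in A375 and at 0.0247, -0.0273 and -0.199 in A2058. Those of arrays with other numbers ran from -0.277 to 0.262 in A375 and from -0.218 to 0.212 in A2058. With the replicate number as a block, 24 members fell and 5 rose in A375, 20 fell and 6 rose in A2058, and 14 differences between responses were lower and 3 higher in A375; between the lines, 13 were higher and 7 lower with DMSO and 6 higher and 14 lower with vemurafenib.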
